A study of Mus musculus with 2 samples.

Results

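The dystrophin-glycoprotein complex was examined through 8 genes, Dmd, Utrn, Dag1, Sgca, Sgcb, Sgcd, Dtna and Sspn, chosen by name from the 34236 gene symbols measured in mouse heart at embryonic day 12.5. Each of the 8 symbols matched a single gene, and all 8 are annotated as protein-coding. RNA sequencing had been done on 2 samples of whole heart, replicate 1 and replicate 2, which carried a mixed C57BL/6 x 129S6 background, with no treatment given. Both samples belong to 1 group, so the data hold no contrast between conditions and describe levels only. The labels do not tell how many embryos or litters stand behind each sample, so the spread between the samples may be technical.

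The complex spans the muscle cell membrane. Dystrophin, or its relative utrophin, binds actin inside the cell and the beta subunit of dystroglycan at the membrane, and the alpha subunit of dystroglycan binds laminin and other matrix proteins through its sugar chains. The sarcoglycans and sarcospan form a second module within the membrane, and the dystrobrevins and syntrophins attach to dystrophin in the cytoplasm and carry signalling proteins. Loss of dystrophin or of alpha-, beta- or delta-sarcoglycan causes muscular dystrophies in humans in which the heart muscle can be affected.

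Levels are given as FPKM. By its usual definition this is the fragments of a gene divided by transcript length in kilobases and by mapped fragments in the library. Its aim is to let genes be set against each other. The roles of the authors' tools are not given, so the exact scaling of these values is unknown. Detection meant a value of at least 1 FPKM in each library. All 8 members were detected, against a background of 36.2% of all symbols and 52.4% of protein-coding symbols. At least 5 FPKM in each library was reached by 7 members, all except Dtna, against 38.4% of protein-coding symbols. The median over the members was 3.44 on the log2(FPKM + 1) scale, compared with 1.42 over all protein-coding symbols and 3.55 over protein-coding symbols averaging at least 1 FPKM. The members as a set thus lay near the middle of the genes that this tissue expressed. Of all FPKM summed over genes, the members made up 0.0416% in replicate 1 and 0.0404% in replicate 2.

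Depth and tissue were checked first. The authors' tables give no counts, so absolute depth is unknown, and from low genes replicate 1 was 1.33 times as deep as replicate 2. All 10 cardiomyocyte markers were detected, with a summed level of 12064 FPKM in replicate 1 and 11504 FPKM in replicate 2. All markers of endothelium (6 of 6), epicardium (5 of 5), fibroblasts and matrix (7 of 7) and red cells (6 of 6) were detected too. Of smooth muscle markers 5 of 6 were detected. The undetected one was Myh11, the smooth muscle myosin heavy chain gene, at 0.571 FPKM in replicate 1 and 0.421 FPKM in replicate 2. Of the 10 skeletal muscle markers 2 were detected. They were Ckm, at 15.4 FPKM in replicate 1 and 10.8 FPKM in replicate 2, and Actn3, at 1.03 and 1.30 FPKM. Myod1, which specifies skeletal muscle, was at 0.124 FPKM in replicate 1 and 0.0863 FPKM in replicate 2. Of 7 neuronal and Schwann cell markers 3 were detected, and none of 5 hepatocyte markers. In whole tissue, fewer cells of a type and less RNA per cell cannot be told apart, and the cell type that gave each transcript was not measured.

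**Figure D1:**
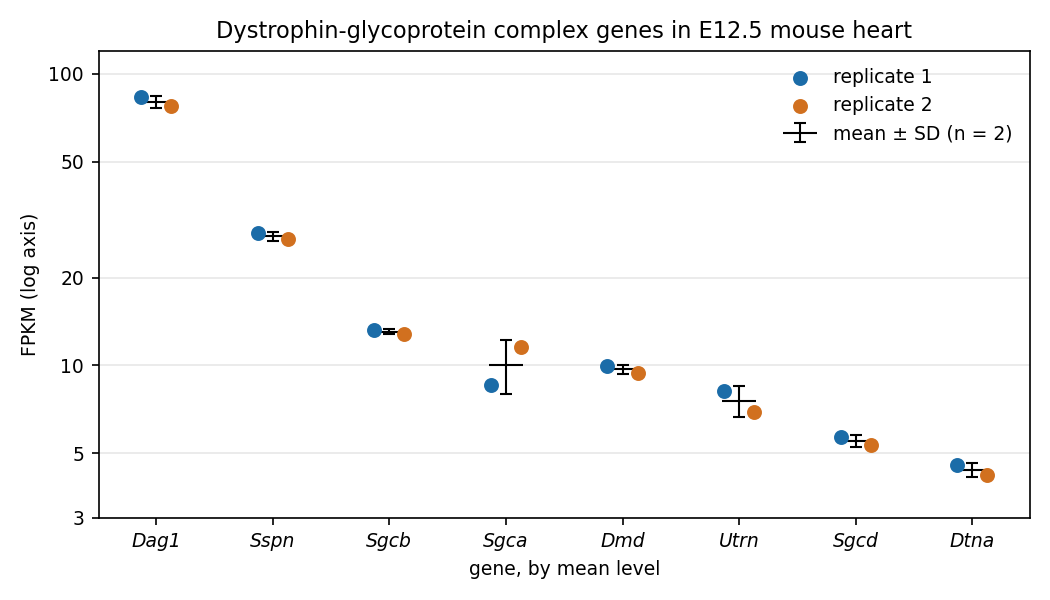
FPKM (log axis) of the 8 members in each library of embryonic day 12.5 heart, ordered by mean level, with points for replicate 1 and replicate 2 and bars for the mean ± SD (n = 2). Dag1 stands alone near 80.2 FPKM, Sspn follows near 27.7 FPKM, the remaining genes lie between 4.37 and 13.1 FPKM, and the points of Sgca are the farthest apart.

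Dag1 was the most abundant member. It encodes a precursor that is cut into the alpha and beta subunits of dystroglycan (chromosome 9, 108108286 to 108166255, minus strand, mm9). It stood at 83.0 FPKM in replicate 1 and 77.3 FPKM in replicate 2, a mean of 80.2 ± 4.0 FPKM (SD, n = 2). Both libraries lay above every value of the other members. Among protein-coding genes averaging at least 1 FPKM, 5.59% were higher. Dag1 alone made up 51.4% of the members' summed FPKM in replicate 1 and 49.999% in replicate 2.

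Dmd and Utrn, the alternative anchors between actin and dystroglycan, were far lower than their membrane partner and close to each other. Dmd, which encodes dystrophin, is the longest gene of the set and covers 2257.3 kb of the X chromosome (80194209 to 82451480, plus strand, mm9). Its level was 9.94 FPKM in replicate 1 and 9.45 FPKM in replicate 2, a mean of 9.70 ± 0.347 FPKM (SD, n = 2). Utrn, which encodes utrophin, the relative of dystrophin that is known from fetal muscle and many other tissues, covers 487.2 kb of chromosome 10 (12101986 to 12589163, minus strand, mm9). Its level was 8.20 FPKM in replicate 1 and 6.90 FPKM in replicate 2, a mean of 7.55 ± 0.916 FPKM (SD, n = 2). Dmd was above Utrn in both libraries and their values did not overlap.

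The mean ratio of Dmd to Utrn was about as large as the spread of single genes. That spread was taken as the 95th percentile of the size of differences between the libraries over symbols averaging at least 1 FPKM, which was 0.32 on the log2(FPKM + 1) scale, or 1.25-fold. The log2 ratio of Dmd to Utrn was 0.25 in replicate 1 and 0.40 in replicate 2 (mean 0.33 ± 0.11), so it lay under this limit in replicate 1 and above it in replicate 2. With a pseudocount of 0.1 FPKM the mean ratio was 0.36 against a limit of 0.42 and was no longer above it. Dag1 exceeded Dmd by a log2 ratio of 2.92 ± 0.02 and Utrn by 3.25 ± 0.08, both far beyond the limit in each library. In FPKM, mean Dag1 was 8.27 times mean Dmd and 10.6 times mean Utrn. The longest transcripts of Dmd and Utrn have 14.9 and 12.4 kb, that of Dag1 5.7 kb. The part of transcript length in these ratios was not tested.

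Dystrophin and utrophin genes are related in sequence, and whether reads could be shared between them bears on the comparison of their levels. Over 10199 aligned coding bases of the longest annotated coding sequences, 57.6% were identical, and the longest stretch that both share without a difference is 25 bases. The coding sequence around that stretch is shown for both genes, 5′ to 3′ on the sense strand, from the GENCODE M21 transcripts. Capitals mark bases that are alike at the same place in both windows, 100 of 145 (69.0%). In Dmd the window runs over coding bases 9677 to 9821, across exons 67 and 68 of 79 (chrX:85109991-85139362, plus strand, GRCm38), and in Utrn over coding bases 8963 to 9107, across exons 63 and 64 of 75 (chr10:12439759-12442045, minus strand, GRCm38).
Dmd: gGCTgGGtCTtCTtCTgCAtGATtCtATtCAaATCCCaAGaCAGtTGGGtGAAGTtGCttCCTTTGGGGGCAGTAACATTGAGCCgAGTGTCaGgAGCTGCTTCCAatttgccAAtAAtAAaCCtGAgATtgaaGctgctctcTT
Utrn: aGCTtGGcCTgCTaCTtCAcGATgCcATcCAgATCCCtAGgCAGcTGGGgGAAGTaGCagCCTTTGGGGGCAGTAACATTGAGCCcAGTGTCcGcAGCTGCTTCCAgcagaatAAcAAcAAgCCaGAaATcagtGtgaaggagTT
No transcript of another gene gave a match to Dmd or Utrn of 75 bases or longer with at least 98% identity. The same held for the other members except Dtna, which shares 90 bases with an antisense gene that was not analysed here. Dmd has 3 protein-coding transcripts in that annotation, from 1858 to 14910 bases, and Utrn has 8, from 660 to 12382 bases. The files give 1 value per gene, so the full-length and short forms cannot be separated.

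The sarcoglycans form the membrane subcomplex that steadies dystroglycan in striated muscle. Sgcb (beta-sarcoglycan, chromosome 5, 74023988 to 74038983, minus strand, mm9) was the highest of the 3 members, at 13.3 FPKM in replicate 1 and 12.9 FPKM in replicate 2. Sgca (alpha-sarcoglycan, chromosome 11, 94824105 to 94837641, minus strand, mm9) was at 8.57 FPKM in replicate 1 and 11.6 FPKM in replicate 2. Sgcd (delta-sarcoglycan, chromosome 11, 46709755 to 47802471, minus strand, mm9) was the lowest, at 5.68 FPKM in replicate 1 and 5.32 FPKM in replicate 2. The values of the 3 genes did not overlap.

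Sgcb exceeded Sgcd by a log2 ratio of 1.11 ± 0.03, beyond the limit of 0.32 in each library. Sgca exceeded Sgcd by 0.52 in replicate 1 and 0.99 in replicate 2 (mean 0.75 ± 0.33). The ratio of Sgcb to Sgca was 0.58 in replicate 1 and 0.14 in replicate 2 (mean 0.36 ± 0.31), so that in replicate 2 it lay within the spread of single genes. The place of Sgca relative to Sgcb therefore rests on replicate 1.

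Among sarcoglycans outside the 8 members, Sgce and Sgcz differed widely. Sgce (epsilon-sarcoglycan), a relative of alpha-sarcoglycan that is known from smooth muscle and many non-muscle tissues, was at 21.9 FPKM in replicate 1 and 21.1 FPKM in replicate 2, above all 3 sarcoglycan members. The log2 ratio of Sgca to Sgce was -1.26 in replicate 1 and -0.81 in replicate 2. Sgcz (zeta-sarcoglycan), a relative of delta-sarcoglycan, was under the detection limit at 0.0297 FPKM in replicate 1 and 0.0482 FPKM in replicate 2. The log2 ratio of Sgcd to Sgcz was 2.65 ± 0.07, and a pseudocount understates ratios against such a low gene. The coding sequences of Sgcd and Sgcz were 61.0% identical over 867 aligned bases, with a longest common stretch of 11 bases.

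Sspn, which encodes sarcospan, a membrane protein that binds the sarcoglycans (chromosome 6, 145880161 to 145913743, plus strand, mm9), was the second most abundant member. It stood at 28.4 FPKM in replicate 1 and 27.1 FPKM in replicate 2, a mean of 27.7 ± 0.947 FPKM (SD, n = 2). It lay above every sarcoglycan in both libraries, and it exceeded Sgca by a log2 ratio of 1.39 ± 0.32. An antisense gene shares up to 69 bases of exon with Sspn and was at 0.292 FPKM in replicate 1 and 0.475 FPKM in replicate 2. The strand setting of the counting is not given in the sources used here, so reads in those bases cannot be assigned to either gene.

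Dtna, which encodes alpha-dystrobrevin, a cytoplasmic relative of dystrophin that binds both dystrophin and syntrophins (chromosome 18, 23573916 to 23818215, plus strand, mm9), was the lowest member. It was at 4.55 FPKM in replicate 1 and 4.20 FPKM in replicate 2, a mean of 4.37 ± 0.247 FPKM (SD, n = 2). Its paralogue Dtnb, encoding beta-dystrobrevin, which is known mainly from non-muscle tissues, was higher in both libraries at 6.28 FPKM in replicate 1 and 6.56 FPKM in replicate 2. The log2 ratio of Dtna to Dtnb was -0.47 ± 0.10. The coding sequences of the pair were 68.9% identical over 1960 aligned bases, with a longest common stretch of 24 bases. The dystrophin relative Drp2 was at 0.518 FPKM in replicate 1 and 0.520 FPKM in replicate 2, and Dytn was listed at 0 in both.

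The syntrophins, adaptors that hold ion channels and enzymes at the complex, had 2 of 4 reported genes detected. Sntb1 (beta-1-syntrophin) was at 5.63 FPKM in replicate 1 and 5.09 FPKM in replicate 2, and Sntb2 (beta-2-syntrophin) at 4.09 FPKM in replicate 1 and 3.88 FPKM in replicate 2. Sntb1 exceeded Sntb2 by a log2 ratio of 0.35 ± 0.04, just above the limit in replicate 2 at 0.32. That ratio was 0.42 with a pseudocount of 0.1 FPKM, no longer above its limit. The gamma syntrophins Sntg1 and Sntg2, known from neurons, averaged 0.120 ± 0.0952 and 0.451 ± 0.0430 FPKM.

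**Figure D2:**
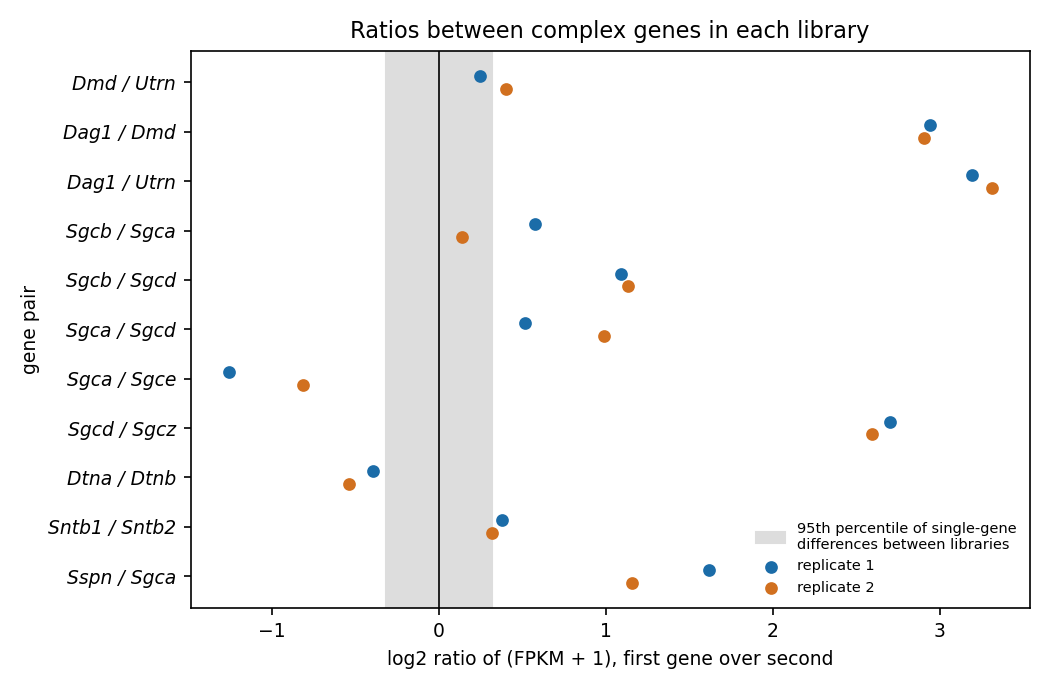
Log2 ratio of (FPKM + 1), first gene over second, for 11 gene pairs in replicate 1 and replicate 2, with the grey band at the 95th percentile of single-gene differences between the libraries (0.32 on either side of 0). Both points lie outside the band for 9 pairs, while Dmd over Utrn has replicate 1 and Sgcb over Sgca has replicate 2 inside it.

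In order of mean level the members ran Dag1, Sspn, Sgcb, Sgca, Dmd, Utrn, Sgcd and Dtna. Of the 7 neighbouring pairs in this order, 5 differed beyond their spread, meaning that the libraries did not overlap and the mean log2 ratio was above 0.32. This rule uses the mean ratio. Among those pairs, Dmd over Utrn lay under 0.32 in replicate 1 (0.25), and Sgcb over Sgca in replicate 2 (0.14). Sgca and Dmd overlapped and had a log2 ratio of 0.04, and Sgcd and Dtna did not overlap but differed by 0.28, under the limit. The step from Dag1 to Sspn was 1.498 and that from Sspn to Sgcb 1.03. In replicate 1 alone the order of Sgca and Dmd was turned, with Dmd the higher. With either library alone 4 neighbouring pairs were beyond the limit.

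Genes that make the sugar chains of alpha-dystroglycan were detected almost throughout. Of 18 enzymes 17 were detected, with a median of 9.57 FPKM over the list, close to the members' own median of 9.88 FPKM. For this and every other list of related genes, the share detected over all protein-coding symbols was 52.4%. The highest were Dpm3 and Dpm2, subunits of the dolichol-phosphate mannose synthase that supplies the mannose, at 35.9 ± 0.00799 and 29.7 ± 1.54 FPKM. Pomgnt1, which adds the sugar after the O-linked mannose, was at 29.1 ± 0.346 FPKM, and B3gnt1, which helps to start the laminin-binding polymer, at 18.02 ± 0.813 FPKM. The kinase gene Sgk196 (listed in the files as 4930444A02Rik) was at 4.06 ± 0.00975 FPKM and Ispd, whose product makes the CDP-ribitol used in the chain, at 3.34 ± 0.298 FPKM. The undetected gene was Gyltl1b at 0.638 ± 0.00838 FPKM. Its paralogue Large, which extends the laminin-binding polymer and was named after its value was seen, was at 10.9 ± 0.743 FPKM.

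Matrix partners of dystroglycan were present at levels up to that of Dag1 itself, with 10 of 11 reported genes detected and a median of 16.4 FPKM. Bgn, encoding the proteoglycan biglycan, was at 80.0 ± 3.91 FPKM and Agrn, encoding agrin, at 46.2 ± 2.23 FPKM. The laminin chain genes Lamb1 and Lamc1 were at 44.2 ± 4.98 and 40.7 ± 4.74 FPKM. Lama2, the laminin alpha chain of adult muscle basement membrane, was low at 3.21 ± 0.318 FPKM. Lama4, an alpha chain of vessels and embryonic tissue named after its value was seen, was at 27.8 ± 2.54 FPKM. Lama5, another alpha chain on the list and also named after its value was seen, was at 5.22 ± 0.752 FPKM. Egflam, encoding pikachurin, was at 3.90 ± 0.0826 FPKM, and Lama1 was undetected at 0.319 ± 0.0454 FPKM.

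Membrane and cytoskeletal partners of the complex had 12 of 13 genes detected and a median of 12.97 FPKM. The adaptor Grb2 was at 34.4 ± 2.53 FPKM, the sarcoglycan-binding filamin Flnc at 33.0 ± 3.33 FPKM, the muscle caveolin Cav3 at 32.5 ± 0.624 FPKM and the polarity kinase Mark2 at 18.8 ± 0.573 FPKM. Krt8 and Synm, intermediate filament genes, were at 3.85 ± 0.366 and 3.46 ± 0.396 FPKM. Nos1, the neuronal nitric oxide synthase that syntrophin anchors in adult muscle, was undetected at 0.0719 FPKM in replicate 1 and 0.0394 FPKM in replicate 2.

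The integrin linkage, the other route from matrix to actin in muscle, had higher levels than the dystrophin members. It had 11 of 12 genes detected and a median of 43.0 FPKM, against 9.88 FPKM over the 8 members, a difference that was described and not tested. Itgb1, the beta-1 integrin, was at 207 ± 13.9 FPKM, the integrin-linked kinase Ilk at 123 ± 3.65 FPKM, Zyx at 94.5 ± 2.22 FPKM and the kindlin gene Fermt2 at 77.8 ± 1.99 FPKM. At the other end, Tln2 was at 8.12 ± 1.03 FPKM and Lims2 at 1.46 ± 0.251 FPKM. Itga7, the laminin-binding integrin alpha chain of adult muscle, was undetected at 0.496 FPKM in replicate 1 and 0.444 FPKM in replicate 2.

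**Figure D3:**
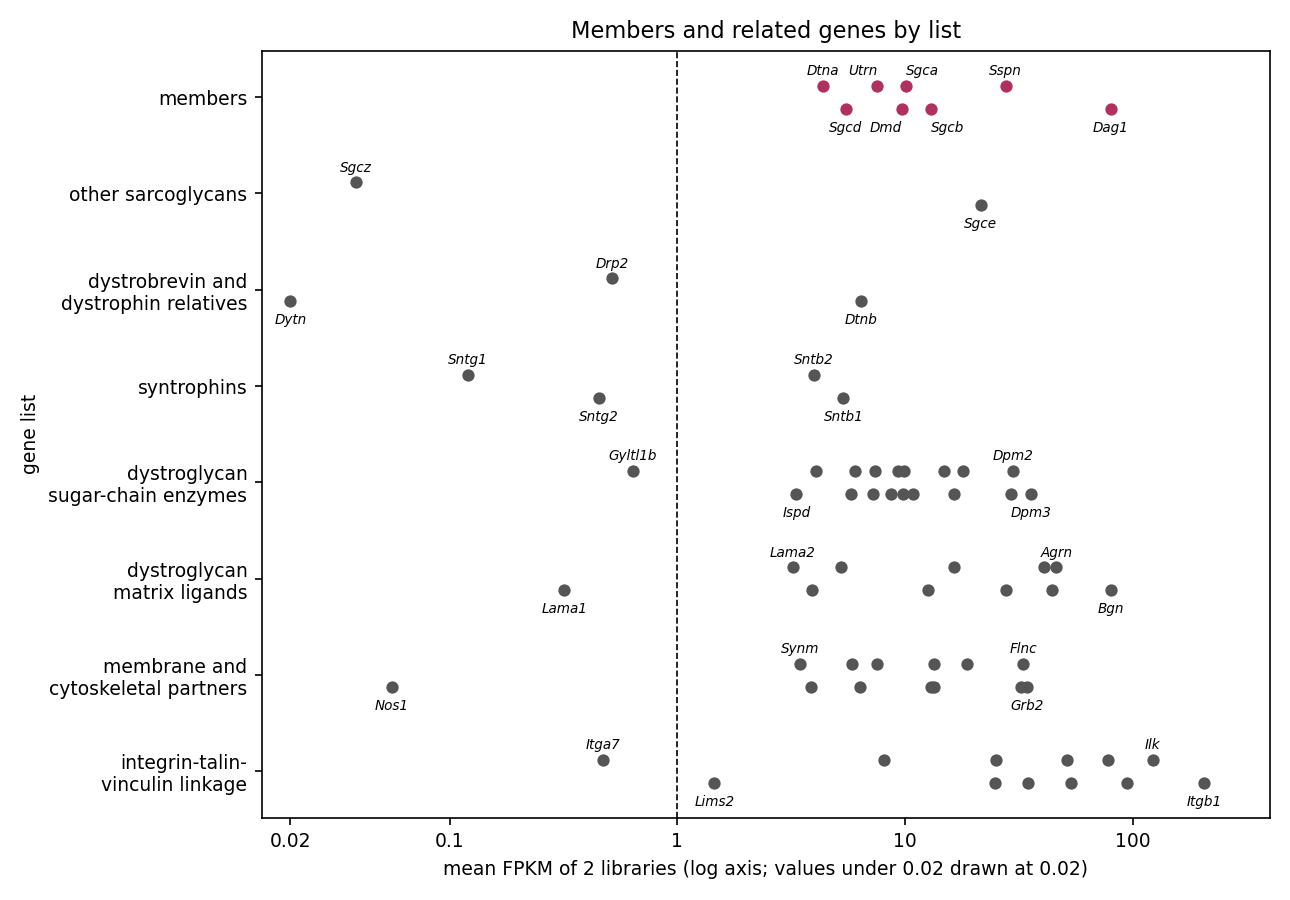
Mean FPKM over 2 libraries (log axis) of the 8 members in the top row and of 7 lists of related genes beneath, 1 point per gene, with the dashed line at the detection limit of 1 FPKM. The members lie between 4.37 and 80.2 FPKM, whereas Sgcz, Drp2, Dytn, the gamma syntrophins, Gyltl1b, Lama1, Nos1 and Itga7 lie left of the line.

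The libraries differed little for the members except Sgca. No member differed 1.5-fold or more on the log2(FPKM + 1) scale, against a background of 2.34% of the 12637 symbols that averaged at least 1 FPKM. At 2-fold or more the count was also 0 of 8, against 0.736% of those symbols, and at 1.2-fold or more it was 1 of 8, Sgca, against 6.44%. As deposited, replicate 1 was higher for 7 of 8 members, against 66.6% of those symbols. The members' count stayed at 7 under both rescalings of the libraries, but the matching share over those symbols is not given here. After median-ratio scaling Sgcb was higher by only 0.005 on the log2(FPKM + 1) scale. The member higher in replicate 2 was Sgca, with a log2 difference as deposited (replicate 1 minus replicate 2) of -0.39. That is larger in size than 0.21, the 95th percentile among symbols between 10 and 20 FPKM. Utrn had the next largest difference at 0.22, inside the 0.26 found among symbols between 5 and 10 FPKM. The other 6 differed by 0.04 to 0.10.

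The difference between the libraries moved with transcript length over all genes. Among 11680 protein-coding genes with a known transcript length, its median was 0.02 for longest transcripts of 1 to 2 kb, 0.07 for 5 to 8 kb and 0.16 for 12 kb or more. Utrn, at 12.4 kb, lay above the median of its class, and Dmd, at 14.9 kb and a difference of 0.07, lay below it. Sgca, at 1.7 kb, lay under -0.16, the 5th percentile of its class. The product of mean FPKM and the length of the longest transcript in kb was taken for each member. It is proportional to the fragments behind a value if all came from that transcript. It was 17.3 for Sgca, 24.5 for Sgcd, 145 for Dmd and 454 for Dag1. The longest transcript of Sgcd, at 4453 bases, is not annotated as protein-coding. Its longest protein-coding transcript has 2450 bases, and with that length the product of Sgcd falls under that of Sgca. Which member rests on the fewest fragments therefore depends on the transcript taken. The part of transcript length or of fragment number in the differences between the libraries was not tested.

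**Figure D4:**
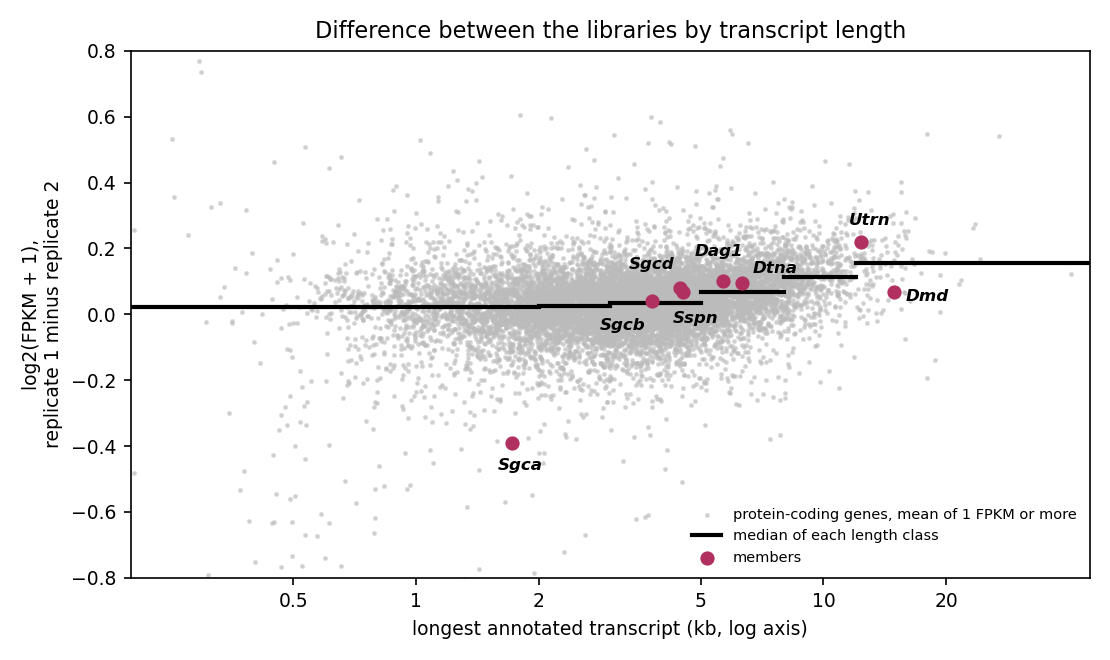
Difference of log2(FPKM + 1), replicate 1 minus replicate 2, against the longest annotated transcript (kb, log axis) for protein-coding genes averaging at least 1 FPKM, with bars at the median of each length class and the 8 members named. The medians climb from 0.02 to 0.16, Sgca lies at -0.39, and 20 of 11680 genes lie outside the drawn range.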

How the data were processed

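The authors deposited 1 table per library with an FPKM value per gene, for which the submitters' processing notes name Cuffnorm, Cufflinks and GSNAP, with neither roles nor versions, and list the builds hg19 and mm9. Trizol RNA went into TruSeq RNA v2 libraries, per the labels' protocols. The annotation release and the settings for strand and multiply mapped reads are not stated. Gene positions printed as mm9 are those of the files.

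From these values, rows with the same symbol were summed and the mean, SD and log2(FPKM + 1) ratios were computed with Python 3.11.15, NumPy 2.4.6 and pandas 2.3.3. All 133 listed symbols used were found, 2 of them by gene ID and 1 under another symbol, and a few listed genes are not reported here. Transcript lengths and sequences came from GENCODE M21 on GRCm38, with copies sought by BLAST 2.17.0 and alignments made by MAFFT 7.526. With 2 libraries of 1 group an exact two-sided sign-flip test cannot give a p under 0.5, so no test was run. FPKM carries no depth, so no interval for counting error is given. Only the fold rule and the step that gave the relative depth were run on simulated data, which held random counting noise alone. The other steps were not simulated. In lists of more than 5 genes the 4 highest and up to 3 lowest genes are named. Members and lists were chosen with earlier results of these data known. Alternatives were another pseudocount, detection limit, fold and filter, rescaled libraries, each library alone, and the highest row of a symbol.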

Additional observations from a re-analysis of the deposited data

How the results depend on the processing

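The summed level of the members was 158 FPKM and ranged from 155 to 162 FPKM with either library left out. Their median log2 level of 3.44 ranged from 3.36 to 3.52 in the same way and was 3.32 with a pseudocount of 0.1 FPKM. All 8 members were detected with either library alone and at a limit of 0.5 FPKM, and 7 at 5 FPKM, where Dtna was not. The neighbours beyond their spread numbered 5 of 7, 4 with either library alone and 3 with the pseudocount of 0.1 FPKM. By its construction that pseudocount also widens the limit, to 0.42. Pairs beyond the limit in each library numbered 9 of 11, 9 after median-ratio scaling and 8 with the pseudocount of 0.1 FPKM. With either library alone the count was 10, under a looser rule because only that library had to pass. At a 1.2-fold limit 1 of 8 members, Sgca, differed between the libraries, beside 6.44% of the symbols averaging at least 1 FPKM. At 1.5-fold and 2-fold 0 members did, beside 2.34% and 0.736% of those symbols. Of the 63 related genes 54 were detected, also with either library alone, beside 52.4% of protein-coding symbols in both libraries. At 5 FPKM the count was 45, beside 38.4% of protein-coding symbols. At 0.5 FPKM it was 56, and the matching share over protein-coding symbols is not given here. Over all results and alternatives, 147 values stayed within the spread between the libraries or, for counts, within 1.5 times the count given, and 13 moved further, 12 of them with the pseudocount of 0.1 FPKM. With 2 libraries, the mean FPKM or log2 ratio from either library alone lies within 1 SD by construction. Taking the highest row of a symbol could not change a member, because each matched a single gene. Rescaling hardly changes a mean over both libraries or a ratio within a library. Unmoved values from these alternatives therefore say little about stability. No paired analysis was possible because both libraries belong to 1 group. Unknown depth limits what the low genes can show.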
